A study of Arabidopsis thaliana with 8 samples.

Results

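Roots of Arabidopsis thaliana plants grown with selenate were compared with roots of plants grown without it, on 4 of the 8 Affymetrix arrays of the series. The roots that met selenate (selenate roots, 2 arrays) came from plants of ecotype WS kept vertically for 10 days on Murashige and Skoog medium at 0.5 strength with 40 µM selenate, and the control roots (2 arrays) from such plants on that medium with no selenate added. All plants lived at 22 °C with 16 h of light and 8 h of dark a day, so selenate was present throughout growth and no early time point was sampled. The other 4 arrays hold the shoots of the same kinds of plants, 2 with selenate and 2 without. Whether replicate arrays hold plants from separate cultures is not stated, so each p-value reflects the spread of these samples alone, and that spread may be technical. The table lists 22810 probe sets, of which 64 are controls. Of the other 22746, those with a signal of at least 100 on at least 2 of the 4 root arrays were tested, which left 14714. The signal is the array's own brightness value for a probe set, scaled so that each array has about the same average, and a log2 change is the difference in log2(signal + 25) between selenate and control roots. A probe set was called when limma's adjusted p, by the Benjamini-Hochberg method over all 14714, was under 0.05.

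Selenate is an oxyanion of selenium that resembles sulfate. Plant roots take it up through sulfate transporters, and the enzymes of sulfate assimilation, beginning with ATP sulfurylase, reduce it and build it into selenocysteine and selenomethionine, which can replace the sulfur amino acids in proteins. Excess selenium is known to stunt roots, to disturb sulfur nutrition and to cause oxidative stress, and stress hormones such as jasmonate and ethylene take part in the response of Arabidopsis.

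Selenate and control root arrays were of like quality, while the actin ratio given below differed between replicate numbers. Over the tested probe sets, Pearson's r between the replicates was 0.985 in selenate roots and 0.987 in control roots, and the differences between replicates had standard deviations of 0.26 and 0.25 on the log2 scale. The ratio of 3′ to 5′ signal of the GAPDH control probe sets, a measure of intact RNA, was 0.828 and 0.792 in selenate roots and 0.868 and 0.783 in control roots. The same ratio for actin was 8.17 and 4.74 in selenate roots and 9.07 and 5.42 in control roots, so it went with the replicate number and not with selenate. PYK10, an abundant beta-glucosidase of root endoplasmic reticulum bodies, had signals of 18138 and 18793 in selenate roots, against 18328 and 16743 in control roots, and on the shoot arrays between 5645 and 9465. The root label was therefore borne out, while only 3 of the 14 root markers listed for this check could be found by name, and no endodermis marker among them. In these whole roots, a change in the share of a cell type and a change in RNA per cell cannot be told apart.

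Selenate was accompanied by changes in a large share of the root transcripts, and the rises were on median larger than the falls. Higher in selenate roots were 1006 probe sets, 6.84% of those tested, and lower were 1175, 7.99%, together 2181 or 14.8% (limma). The median log2 change of the rises was 0.97, with quartiles of 0.65 and 1.68, and that of the falls was -0.71, with quartiles of -0.98 and -0.54, while the median over all tested probe sets was -0.02. At 4-fold or more, 196 probe sets were higher (1.33% of those tested) and 15 lower. At 16-fold or more, 33 were higher and 1 lower. A fall of at least 2-fold was found for 278 (1.89%), against 484 rises of that size. All 2181 called probe sets had both selenate arrays on the same side of both control arrays, as had 8053 (54.7%) of all tested probe sets.

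**Figure D1:**
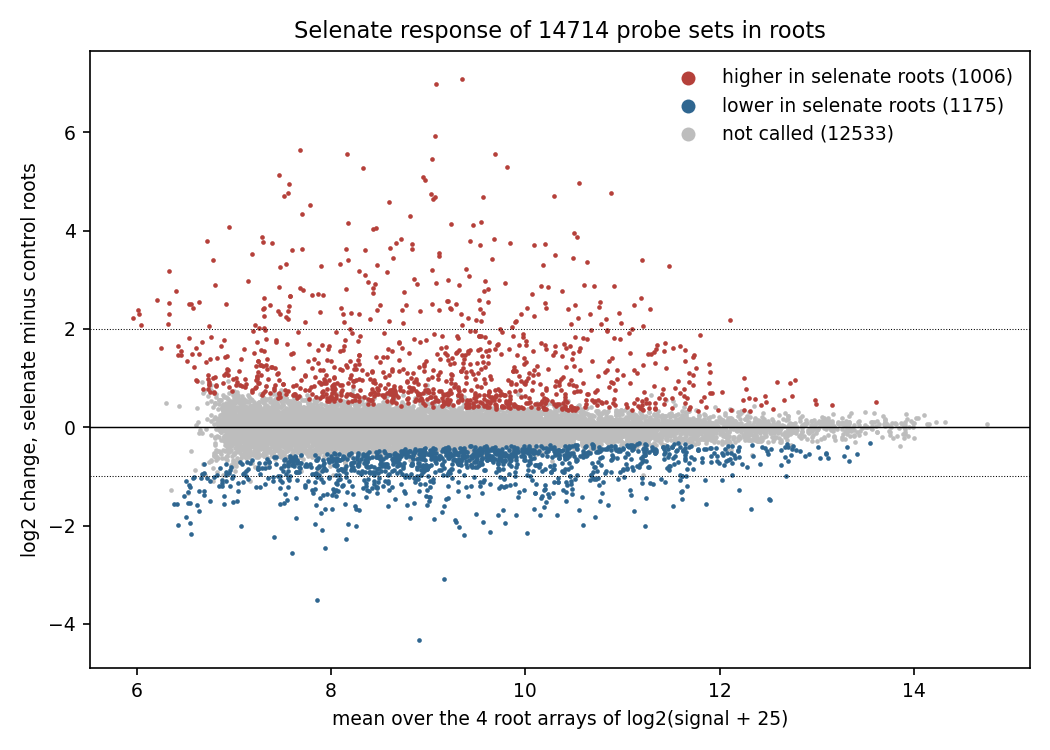
Log2 change (selenate minus control roots, vertical) against the mean log2(signal + 25) over the 4 root arrays (horizontal) for 14714 probe sets. The 1006 higher probe sets (red) reach further from 0 than the 1175 lower ones (blue), and dotted lines mark a 4-fold rise and a 2-fold fall.

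The larger changes rested least on the choice of arrays. With the 4 shoot arrays added to the fit, 911 probe sets (6.19%) were called in roots, 533 higher and 378 lower, and all 911 were among the 2181. Rises were thus the fewer in the fit of the 4 root arrays and the more numerous with all 8. The shoot arrays had higher 3′ to 5′ ratios, of 7.34 and 2.95 in selenate shoots and 2.03 and 10.4 in control shoots for GAPDH, and the part of RNA quality in results that use them was not tested. Of the 196 rises of at least 4-fold, 195 remained called in that fit, and all 196 when each root array was left out in turn. Of the 278 falls of at least 2-fold, 222 remained called with all 8 arrays and 271 through all 4 omissions.

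Strong rises also came from genes that were near or below the signal minimum in control roots. Among the 284 probe sets that reached a signal of 100 on both selenate arrays and on neither control array, 178 were called higher, 88 of them by at least 4-fold, and these passed the filter through the selenate arrays alone. Among the 189 that reached it on both control arrays and on neither selenate array, 79 were called lower. Of the 13446 that reached it on all 4 arrays, 796 were higher, 95 of them by at least 4-fold, and 1069 lower. The falls lay among brighter probe sets: in 5 bins of equal size, from dim to bright by mean signal, they numbered 143, 181, 226, 276 and 349, and the rises 183, 165, 189, 248 and 221.

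Names limit what can be said of these calls. Of the 2181 called probe sets 1105 matched 1 gene by the platform's annotation, 37 matched several and 1039 had no gene listed. Of the 1105, 904 belong to genes whose symbol in RefSeq is their locus code (locus-coded genes), 423 of them higher and 481 lower, and 201 to genes with a symbol, 96 higher and 105 lower. Among the 100 largest rises 47 had 1 gene and 49 none. With 1 probe set for each of 7903 genes, 1104 genes (14.0%) were called, 518 higher (6.55%) and 586 lower (7.41%), with a median log2 change of -0.03 over all genes. The called share was 13.3% of 6783 locus-coded genes and 17.9% of 1120 genes with a symbol. The largest rise without a gene name was that of probe set 253259_at, with signals of 5798 and 6372 in selenate roots, against 27.3 and 19.5 in control roots (log2 change 6.98), and the next was 246884_at (5.93). The largest falls of this kind were 255127_at (-3.09) and 254772_at (-2.45).

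The locus-coded genes held some of the strongest responses of the roots. The 15 largest rises among them had log2 changes between 3.72 and 5.65, and each was called with all 8 arrays and with any 1 root array left out. Of the 15, 11 had signals under 100 on both control arrays, and their control signals ran from 3.60 to 372 over all 15, while on the selenate arrays the 15 lay between 445 and 8557. AT1G76640, listed in RefSeq under the synonym CML39, a calmodulin-like calcium sensor, had signals of 1509 and 1357 in selenate roots, against 3.60 and 4.40 in control roots (log2 change 5.65 ± 0.16 (SE), limma adjusted p = 3.78e-07). Its transcript was at the low end of the array scale in control roots, as it was in shoots with signals of 3.0 and 1.70 in selenate shoots and 1.5 and 3.30 in control shoots. AT4G33720 had signals of 5678 and 5514 in selenate roots, against 94.9 and 148 in control roots, and AT4G29780 8268 and 8557 in selenate roots, against 236 and 251 in control roots. Both genes were picked with both selenate values above both control values, and their log2 changes were 5.28 ± 0.17 (SE) and 4.98 ± 0.10 (SE).

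AT4G27654 and its neighbours AT4G27652 and AT4G27657, which lie next to each other in RefSeq's gene order, rose together. For AT4G27654 signals were 3558 and 3363 in selenate roots, against 56.7 and 51.4 in control roots (log2 change 5.46). For AT4G27652 they were 5353 and 5946 in selenate roots, against 372 and 355 in control roots (3.87). For AT4G27657 they were 616 and 559.7 in selenate roots, against 30.0 and 13.1 in control roots (3.74). The 3 genes differed in their control signals, but on each the selenate arrays were above the control arrays by more than 10-fold. AT1G19210 (4.58), AT3G01830 (4.34), AT3G02840 (4.16), AT1G12030 (4.06), AT2G25460 (4.04) and AT2G25735 (4.02) followed. AT5G17350 (3.82), AT1G15010 (3.72) and AT5G52050 (3.76) complete the 15. AT5G52050 is listed under the synonym DTX50, a detoxification efflux carrier of the MATE family, and had signals of 568 and 541 in selenate roots, against 6.30 and 33.6 in control roots. Its control arrays differed from each other, but both lay more than 10-fold below the selenate arrays. The size of these log2 changes depends on the pseudocount, since many control signals were low: the 15 ranged from 2.46 to 4.69 with a pseudocount of 100 and from 3.94 to 7.32 with one of 5, and were called with either.

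**Figure D2:**
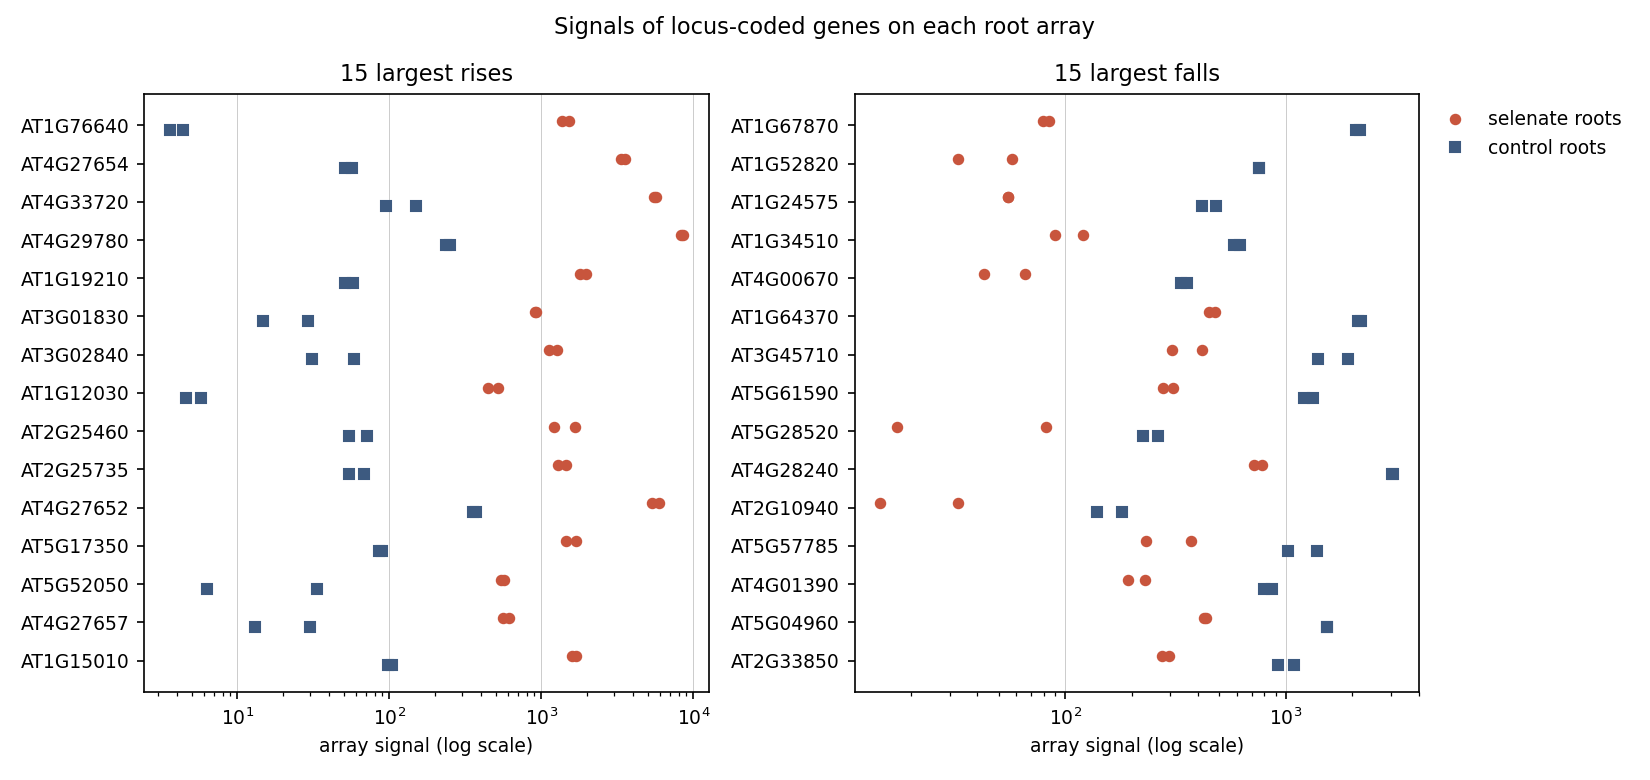
Signals (log scale) of the 15 locus-coded genes with the largest rises (left) and the 15 with the largest falls (right), 1 point for each array, selenate roots as red circles and control roots as blue squares. The groups do not overlap for any of the 30 genes, which were picked under that condition. The rises end between 445 and 8557 on the selenate arrays.

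The falls of locus-coded genes were smaller, with 1 exception. AT1G67870 had signals of 84.8 and 79.4 in selenate roots, against 2162 and 2076 in control roots (log2 change -4.32 ± 0.12 (SE), limma adjusted p = 3.78e-07), the only called fall of at least 16-fold on the root arrays. Shoots held this transcript at 2582 and 2493 in selenate shoots and 3278 and 2938 in control shoots, so its signal in selenate roots stood apart from the other 3 groups. AT1G52820 had signals of 57.2 and 32.5 in selenate roots, against 754 and 758 in control roots (log2 change -3.51), and AT1G24575 had 54.8 and 55.3 in selenate roots, against 482 and 415 in control roots (-2.56). The next were AT1G34510 (-2.27), AT4G00670 (-2.24), AT1G64370 (-2.16) and AT3G45710 (-2.12). AT5G61590, listed under the synonym DEWAX, an AP2/ERF factor that represses wax synthesis in leaves, had signals of 308 and 277 in selenate roots, against 1325 and 1207 in control roots (log2 change -2.03). AT5G28520, AT4G28240, AT2G10940, AT5G57785, AT4G01390, AT5G04960 and AT2G33850 had log2 changes between -2.0 and -1.72. All 15 were called with any 1 root array left out, and 14 with all 8 arrays; the exception was AT2G33850 (adjusted p = 0.116 in that fit). With a pseudocount of 100 the log2 change of AT2G10940 was -1.07, and that of AT5G28520 -1.24. AT1G67870, AT1G52820, AT1G24575, AT4G00670, AT5G28520 and AT2G10940 had signals under 100 on both selenate arrays. They passed the filter through the control arrays alone, where they were high.

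RefSeq gives a name among the synonyms of 19 called locus-coded genes, 6 higher and 13 lower, of which 10 were called with all 8 arrays and 12 through each omission of a root array. These genes were picked for having a name, after their values were known. Uncalled genes with such a name were not counted, so the 19 give no share to set beside the 13.3% of locus-coded genes called. AT5G48570 (FKBP65, an immunophilin known from heat stress) rose with signals of 436 and 398 in selenate roots, against 169.9 and 150.1 in control roots, a log2 change of 1.26. AT2G41480 (PRX25) and AT5G64120 (PRX71), both class III peroxidases of the cell wall, moved apart, with log2 changes of 1.16 and -1.44. PRX25 had signals of 2076 and 2405 in selenate roots, against 950.1 and 1029 in control roots, and PRX71 343 and 322 in selenate roots, against 929 and 961 in control roots. AT5G19800 (HRGP2, a hydroxyproline-rich wall glycoprotein) fell by 1.61 on the log2 scale. AT3G13610 (F6'H1), the hydroxylase that starts the synthesis of scopoletin-type coumarins in roots, had signals of 2473 and 2086 in selenate roots, against 3622 and 3369.5 in control roots, a log2 change of -0.62. The fall of F6'H1 was small, and it was not called with all 8 arrays (adjusted p = 0.132).

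The genes with the largest differences between mean signals were also named, although a probe set's brightness depends on the probe set as well as on the RNA, so this order ranks no transcripts. STZ, a zinc finger repressor of stress responses, had a mean signal of 9842 ± 452 in selenate roots and 336 ± 18.5 in control roots (SD, n = 2 each), a log2 change of 4.77. The other rises of this kind were AT4G29780, BGLU28, AT1G75280 and AT4G27280. AT4G27280 had signals of 7846 and 7398 in selenate roots, against 719.8 and 671 in control roots (log2 change 3.41), and AT1G75280 10178 and 8627 in selenate roots, against 2139.5 and 1969.7 in control roots (2.18). Both groups of arrays were apart for each of these rises, as for all called probe sets and 54.7% of those tested. Among the falls, AT2G16005 had signals of 3921 and 3093 in selenate roots, against 10893 and 8813 in control roots (log2 change -1.49) and was near background on the shoot arrays, at 24.8 and 65.0 in selenate shoots and 28.0 and 54.7 in control shoots. AT3G15450 had 4480.1 and 4795 in selenate roots, against 9368 and 9224 in control roots (-1.0), and AT2G37130 2316 and 1962 in selenate roots, against 6719 and 5987 in control roots (-1.56). AT3G52060, listed as an acetylglucosaminyl transferase-like gene, had 1658 and 2076 in selenate roots, against 4908 and 5453 in control roots (-1.47). Both arrays of each group agreed on these falls, as they did for every called probe set. All 5 falls by this measure, with APS4, were called with all 8 arrays.

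Genes of sulfate assimilation moved in both directions. APS3 and APS4 encode isoforms of ATP sulfurylase, which activates sulfate and selenate for reduction, and they moved in opposite directions. APS3 had signals of 897 and 997 in selenate roots, against 164 and 156 in control roots (log2 change 2.39 ± 0.13 (SE), limma adjusted p = 9.24e-06), and APS4 had 1166 and 1191 in selenate roots, against 4941 and 4663 in control roots (-2.0 ± 0.09 (SE), adjusted p = 4.33e-06). SIR, sulfite reductase, had 3283 and 4029.5 in selenate roots, against 2840.4 and 2961 in control roots. Its log2 change was 0.32 (limma adjusted p = 0.108) and it was not called. With the replicate number added to the fit as a block, SIR was called. These were the only 3 of 23 listed genes that could be tested, 1 higher and 1 lower, against 6.55% and 7.41% of all genes, and no sulfate transporter of the list of 12 was among the genes tested. Of the 11 genes on the sulfur deficiency list only 2 could be tested, and both rose, where 6.55% of all genes rose. BGLU28, a beta-glucosidase gene known as a marker of low sulfur, had signals of 8236 and 6952 in selenate roots, against 21.4 and 42.1 in control roots, a log2 change of 7.09, and passed the filter through the selenate arrays alone; AT1G04770 had 1748 and 1622 in selenate roots, against 744 and 657 in control roots, a log2 change of 1.24. Beside BGLU28 in the genome, BGLU15 had a log2 change of 0.50 (adjusted p = 0.00941), a call that ended with all 8 arrays (adjusted p = 0.152). BCAT4, an enzyme of methionine chain elongation for aliphatic glucosinolates, fell to 1213 and 1056 in selenate roots, against 2607 and 2169.7 in control roots. AT2G31790 had a log2 change of 0.01, and these 2 were the only genes tested of 19 on the aliphatic glucosinolate list.

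Calcium sensor genes and a jasmonate-linked factor were among the 5 largest rises with a symbol, after BGLU28 and beside STZ. CML38 had signals of 1929 and 2027 in selenate roots, against 25.3 and 27.8 in control roots. CML37 had 1035 and 1017 in selenate roots, against 2.80 and 16.7 in control roots. The AP2/ERF factor ORA47, which is known to switch on jasmonate synthesis, had 2804 and 2906 in selenate roots, against 54.4 and 64.6 in control roots. The log2 changes of CML38, CML37 and ORA47 were 5.28, 4.95 and 5.09. ORA47, like CML38 and CML37, passed the filter through the selenate arrays alone. No selenate array overlapped a control array, a condition of their choice that 54.7% of all tested probe sets met. OPCL1, a ligase of jasmonate synthesis and the only gene of its list that could be tested, had 3217 and 3205 in selenate roots, against 389.9 and 456 in control roots (log2 change 2.86). The calcium sensor list, found by name, held 8 tested genes, which need not all be sensors themselves. Of these 4 rose and 0 fell, where 6.55% of all genes rose and 7.41% fell. Since 3 of the 4 passed the filter through the selenate arrays alone, where they were high, the count is a description only. They were AT1G76640, CML38, CML37 and CML23 (2.38), while CML43, CML42, AT4G35987 and CML30 had log2 changes of 0.25, 0.07, -0.03 and -0.16 and did not pass the test. All 4 rises held with all 8 arrays and without any 1 root array. WRKY factors, a plant family of stress regulators, showed 2 rises among 6, where 6.55% of all genes rose. Of the 2, WRKY53 passed the filter through the selenate arrays alone. These were WRKY53 with signals of 718 and 745 in selenate roots, against 75.9 and 89.2 in control roots (2.82) and WRKY22 with 525 and 578 in selenate roots, against 125 and 131 in control roots (1.91). The other 4 lay between -0.06 and 0.30.

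**Figure D3:**
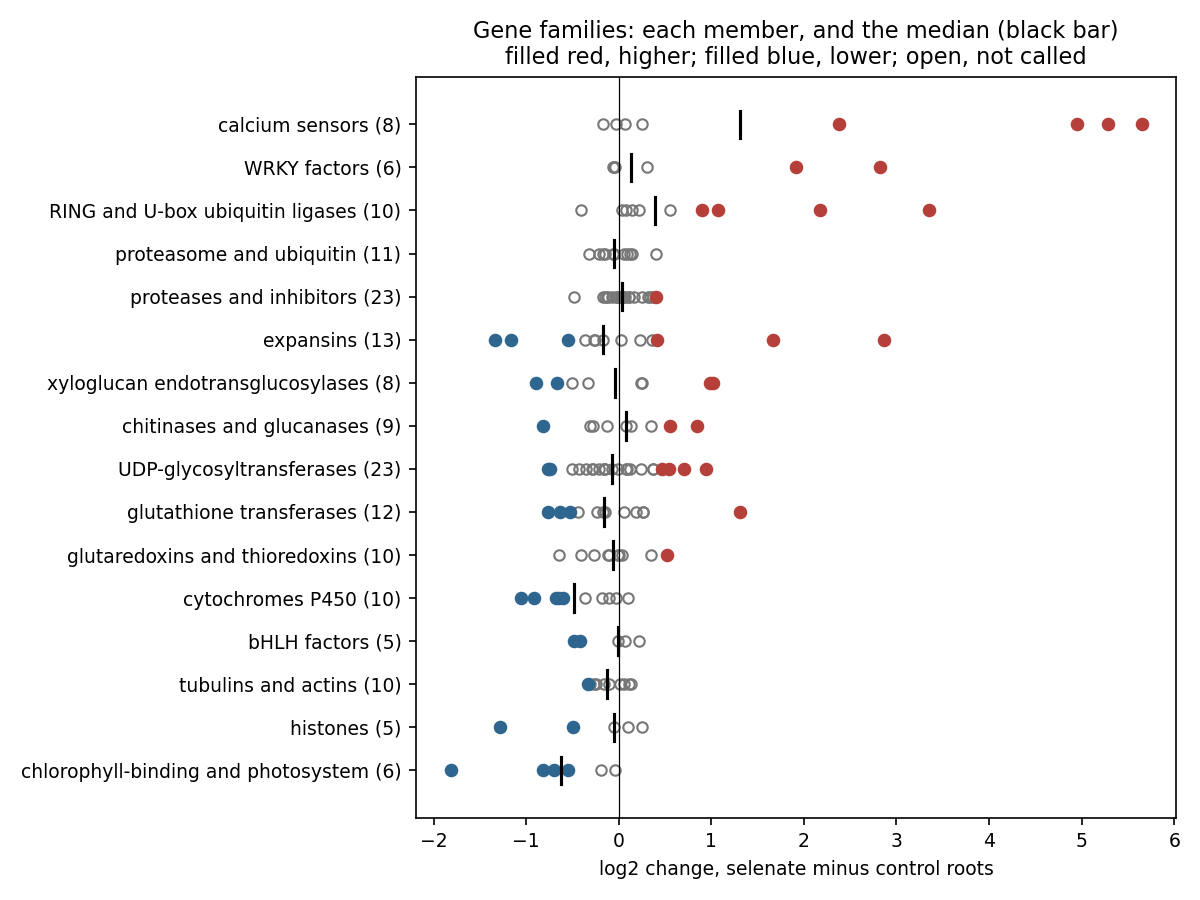
Log2 change (selenate minus control roots) of each tested member of 16 gene families found by name, with the number of members in brackets and the median as a black bar. Filled red points were called higher, filled blue points lower and open points not called; calcium sensors and U-box ligases spread to the right, and cytochromes P450 and photosystem genes to the left.

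Some U-box ubiquitin ligase genes rose, and no tested gene of a ubiquitin-conjugating enzyme passed the test. Of 10 RING and U-box genes 4 rose (6.55% of all genes did) and 0 fell, and all 4 are U-box genes: PUB23, with signals of 5052 and 5032 in selenate roots, against 464 and 478 in control roots (log2 change 3.35), PUB22 (2.17), PUB24 (1.07) and PUB19 (0.90). PUB22, PUB23 and PUB24 are close relatives known to restrain immune responses. PUB26, PUB43, PUB25 and PUB49 had log2 changes of 0.55, 0.22, 0.14 and 0.08, with no call. Of the 4 rises 3 were called with all 8 arrays, where PUB19 had an adjusted p of 0.278; in shoots its log2 change was larger, at 3.43. Of 11 ubiquitin-conjugating enzyme genes 0 were called in limma, with log2 changes from -0.32 to 0.40. Of 23 proteases and inhibitors 1 was called, where 14.0% of all genes were. It was SBT4.12 (a subtilase, 0.41). Its call ended without selenate root array 1 (log2 change 0.36) and without control root array 2 (log2 change 0.30).

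Expansins, xyloglucan endotransglucosylases and the chitinase and glucanase genes each held calls in both directions. Of 13 expansins 3 rose and 3 fell, against 6.55% and 7.41% of all genes, with a median log2 change of -0.17 against -0.03 over all genes. The expansin-like genes EXLA3 and EXLA1 lie side by side and both rose. EXLA3, which passed the filter through the selenate arrays alone, had signals of 456 and 444 in selenate roots, against 42.6 and 38.2 in control roots (log2 change 2.86), and EXLA1 had 1824 and 1617 in selenate roots, against 559 and 490.5 in control roots (1.67). EXPA7 and EXPA18, expansins of root hairs, fell. EXPA7 had signals of 196 and 220.5 in selenate roots, against 533 and 459.5 in control roots (-1.16), and EXPA18 had 262 and 234 in selenate roots, against 735 and 604 in control roots (-1.34). These were the only genes of 8 on the root hair list that could be tested, and EXPA18 was not called with all 8 arrays (adjusted p = 0.171). The remaining calls, EXPA9 (0.41) and EXPB3 (-0.55), were small, and ended without selenate root array 1 (adjusted p = 0.0663), without selenate root array 2 (adjusted p = 0.0752), without control root array 1 (adjusted p = 0.234) and without control root array 2 (adjusted p = 0.0525) for EXPA9 and without control root array 2 (adjusted p = 0.0856) for EXPB3. Whether fewer root hairs or less transcript in each lies behind the lower signals cannot be told apart. Among 8 xyloglucan endotransglucosylase genes, whose enzymes cut and rejoin xyloglucan, XTH20 (1.01) and XTH18 (0.98) rose and XTH21 (-0.89) and XTH16 (-0.67) fell. Over all genes 6.55% rose and 7.41% fell. XTH20 and XTH18 were called with all 8 arrays and XTH21 and XTH16 were not (adjusted p = 0.0782 and 0.0511). Of 9 chitinases and glucanases GH9C3 and ChiC rose and GH9C1 fell, where 6.55% of all genes rose and 7.41% fell. Their log2 changes were 0.85, 0.56 and -0.81. The call of GH9C3 ended without selenate root array 2 (adjusted p = 0.092) and without control root array 1 (adjusted p = 0.0832), and that of ChiC without control root array 1 (adjusted p = 0.0552). None of these 3 was called with all 8 arrays (adjusted p = 0.225, 0.179 and 0.0539), and GH9C3 passed the filter through the selenate arrays alone.

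Glutathione transferases, glycosyltransferases and cytochromes P450 serve detoxification among other roles. Of 12 glutathione transferase genes 1 rose, a share near the 6.55% of all genes, and 3 fell, against 7.41%, with a median log2 change of -0.16: GSTU27 had signals of 4032 and 4061 in selenate roots, against 1797 and 1445 in control roots (1.31), and GSTU28, GSTU20 and GSTU18 had log2 changes of -0.77, -0.64 and -0.53. Only GSTU27 of these was called with all 8 arrays, and the call of GSTU18 ended without each of the 4 root arrays (adjusted p from 0.0564 to 0.236). Of 23 UDP-glycosyltransferases found by name 4 rose and 2 fell, against 6.55% and 7.41% of all genes, with a median of -0.07. That search was incomplete: of 27 tested genes with a UGT symbol 5 rose and 2 fell, with a median of -0.14. The neighbours UGT71C3 and UGT71C4 moved in opposite directions. UGT71C3 had signals of 608 and 646 in selenate roots, against 292 and 337 in control roots (0.94), and UGT71C4 had 459 and 482 in selenate roots, against 813 and 793 in control roots (-0.74, adjusted p = 0.0727 with all 8 arrays). Of the other calls among the 23, those of UGT71C2 (-0.77) and UGT73B4 (0.71) ended without selenate root array 2 (log2 changes of -0.54 and 0.56). Both also ended without control root array 1 (-0.67 and 0.57). The call of UGT73B5 (0.54) ended without control root array 1 (0.43), and that of UGT74B1 (0.46) without control root array 2 (0.44). Cytochromes P450, which oxidise many plant metabolites, gave 5 falls (7.41% of all genes fell) and 0 rises among 10 genes, with a median of -0.48; 1 of the 5 was called with all 8 arrays. The clearest was CYP71B34, with signals of 228 and 196 in selenate roots, against 418 and 426 in control roots (-0.92), while CYP718, CYP84A4, CYP71B23 and CYP71B37 lost their calls without 1 or more root arrays. CYP718 (-1.05) did so without selenate root array 2 (adjusted p = 0.106), CYP84A4 (-0.68) without selenate root array 1 (adjusted p = 0.09) and without control root array 1 (adjusted p = 0.22), CYP71B23 (-0.64) without control root array 1 (adjusted p = 0.0599), and CYP71B37 (-0.60) without control root array 2 (adjusted p = 0.169). Of 10 glutaredoxins and thioredoxins found by name GRXC2 rose (0.52), where 6.55% of all genes rose, and the others were not called. With all 8 arrays GRXC2 was not called (limma adjusted p = 0.124). The search by name missed the glutaredoxin gene ROXY2, which passed the filter through the control arrays alone and fell (log2 change -1.55). It was called with all 8 arrays too (limma adjusted p = 0.0326).

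Several nuclear genes of photosynthesis fell. Of 6 genes of the antenna and photosystem list 4 fell (7.41% of all genes did) and 0 rose, with a median log2 change of -0.62. LHCB4.2, an antenna protein of photosystem II that passed the filter through the control arrays alone, had signals of 20.7 and 26.7 in selenate roots, against 146 and 146 in control roots (-1.82), and PSBW 381 and 337 in selenate roots, against 703 and 603 in control roots (-0.82). LHCB4.1 (-0.69) lost its call without control root array 1 (adjusted p = 0.052), and PSBY (-0.55) without control root array 2 (adjusted p = 0.0757). The summed signal of the 5 green-tissue markers on the table, of 15 listed, was 1110.2 and 1022 in selenate roots, against 1997 and 1661 in control roots, and between 104687 and 115504 on the shoot arrays. Of the 5, LHCB4.1, PSAE-1 and LHCB4.2 were called lower and SBPASE and PRK were not (log2 changes of -0.04 and -0.52). LHCB4.1 and LHCB4.2 stand in both lists, so the marker total is no separate measurement. The part of shoot tissue in these falls was not tested. Among the 5 largest falls with a symbol were PORB, of chlorophyll synthesis, OCT1, a carnitine transporter gene, and the glutaredoxin gene ROXY2. PORB had signals of 41.3 and 12.2 in selenate roots, against 125 and 116 in control roots. OCT1 had 78.8 and 102 in selenate roots, against 493 and 367 in control roots. ROXY2 had 17.0 and 44.8 in selenate roots, against 154 and 115 in control roots. PORB and ROXY2 passed the filter through the control arrays alone.

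The histone, tubulin and actin, and bHLH lists held 5, 10 and 5 tested genes. Among them 5 were called, all lower, where 7.41% of all genes fell. These are 3 separate lists, and the joint count describes no family. Of the 5 calls, 1, that of HIS1-3, held with all 8 arrays. The linker histone gene HIS1-3, known to respond to drought, had signals of 275 and 327 in selenate roots, against 809 and 728 in control roots (-1.29), and HON4 had a log2 change of -0.50, 2 falls among 5 genes found by the word histone, where 7.41% of all genes fell. The call of HON4 ended without selenate root array 1 (adjusted p = 0.0542), without control root array 1 (adjusted p = 0.0549) and without control root array 2 (adjusted p = 0.0549). The tubulin and actin list held 10 tested genes, which need not all encode tubulins or actins. Only TUB1 was called, lower (-0.33), where 7.41% of all genes fell. Its call ended without each of the 4 root arrays (log2 changes from -0.34 to -0.32). Of 5 bHLH factors bHLH121 (-0.48) and bHLH104 (-0.42) were called lower, where 7.41% of all genes fell. Without selenate root array 1 or control root array 1 the call of bHLH121 ended (adjusted p = 0.128 and 0.183), and that of bHLH104 ended without selenate root array 2 and either control array (0.114, 0.0797 and 0.105).

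Genes next to each other on a chromosome shared their response in some places and not in others. In RefSeq's order 2550 pairs of adjacent protein-coding genes had both members tested, and in 72 pairs both were called: 28 pairs both higher, 29 both lower and 15 in opposite directions. Of the tested neighbours of a called gene 19.4% were called, against 14.5% of all genes in such pairs. In 17 pairs both changes were at least 2-fold. Besides the genes around AT4G27654, the calmodulin-like genes AT1G76640 and CML38 adjoin each other, with log2 changes of 5.65 and 5.28, as do AT5G52750 (2.24) and AT5G52760 (3.17) and AT2G32020 (1.61) and AT2G32030 (2.21). Among falls, AT3G45700 and AT3G45710 had log2 changes of -1.17 and -2.12, the first not called with all 8 arrays (adjusted p = 0.146), and AT5G44400 and AT5G44410 -1.66 and -1.19. The most extreme opposite pairs each joined 1 of the leading genes to a neighbour that went the other way. AT4G33720 had a log2 change of 5.28 and AT4G33730 -1.59, with signals for the second of 270.5 and 264 in selenate roots, against 832 and 875 in control roots. AT1G67870 had -4.32 and AT1G67880 1.68, with signals for the second of 431 and 378 in selenate roots, against 89.5 and 132 in control roots. The pairs in this paragraph were picked by size after their values were seen, and adjacent relatives of 1 family can share probe binding.

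**Figure D4:**
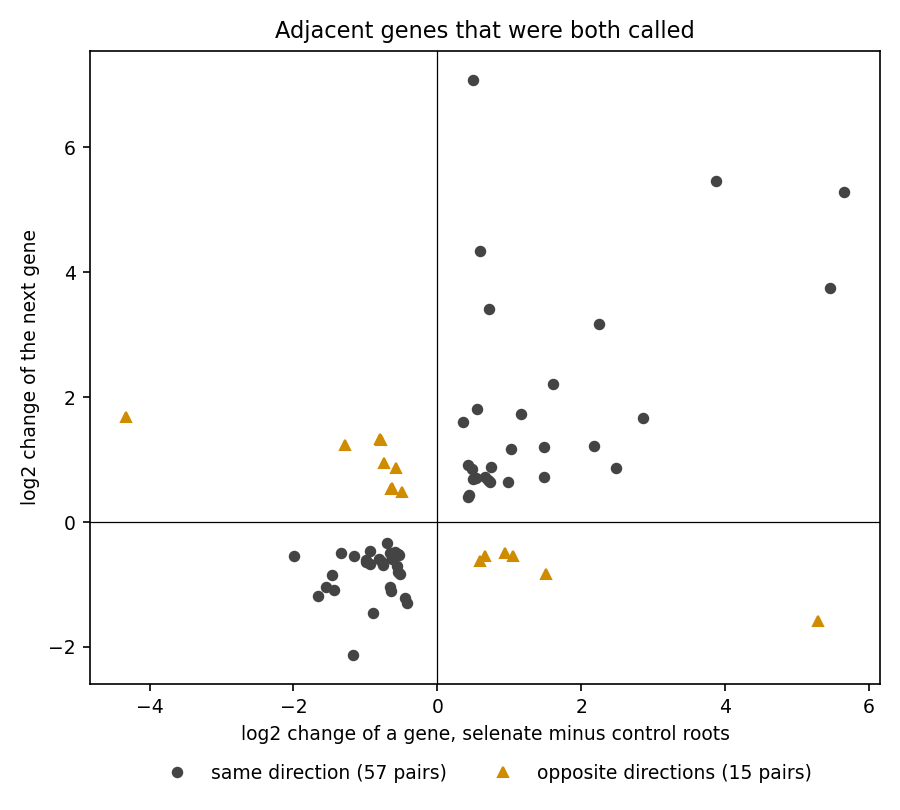
Log2 change (selenate minus control roots) of a gene (horizontal) and of the next protein-coding gene (vertical) for the 72 adjacent pairs with both genes called. Circles show 57 pairs that moved in the same direction and triangles 15 that moved in opposite directions, among them AT4G33720 with AT4G33730 at the lower right and AT1G67870 with AT1G67880 at the upper left.

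Genes that responded were shorter than those that did not. The span in RefSeq, introns included, had a median of 1262 bp for the 89 genes that rose at least 4-fold, 1894 bp for 511 rises, 1480 bp for 136 falls of at least 2-fold and 1906 bp for 585 falls, against 2411 bp for 6791 genes that were not called. A span was known for at least 98.6% of each set. Within each of 5 bins of mean signal the median span of the rises (1577 to 2036 bp) and of the falls (1476 to 2048 bp) was below that of all genes there (2142 to 2469 bp). This is a description across genes, which are not replicates.

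**Figure D5:**
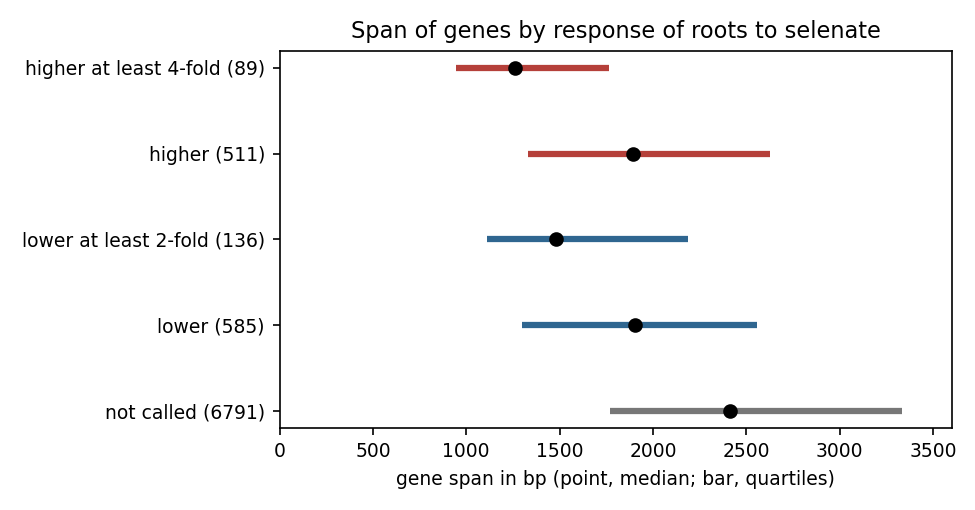
Span in bp (RefSeq, TAIR10.1) of genes by their call in roots, with the number of genes in brackets, the median as a point and the quartiles as the ends of the bar. The median was 1262 bp for rises of at least 4-fold and 2411 bp for genes not called.

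The response of the roots differed from that of shoots at many of these genes. The difference between the log2 change in roots and that in shoots was called for 586 of the 14714 probe sets (3.98%, limma, all 8 arrays), and 504 of these were among the 2181 called in roots: 345 rises and 159 falls. Of the rises of at least 4-fold 177 of 196 differed, and of the falls of at least 2-fold 88 of 278. The probe sets called in roots, and the leading genes below, were picked for their root change. That change is part of the difference tested, so a share above 3.98% follows in part from the choice. These differences rest on the shoot arrays with the higher 3′ to 5′ ratios given above. The count of 504 changed with the arrays used, and was 251 without selenate root array 1, 226 without selenate root array 2, 244 without control root array 1 and 255 without control root array 2. All 15 leading locus-coded rises differed from their change in shoots, which was between -0.57 and 1.80 on the log2 scale, and 12 of the 15 had signals under 100 on all 4 shoot arrays. AT1G12030, with a log2 change of 4.06 in roots and 1.80 in shoots, was the one of the 15 that was called in shoots too. Of the 15 leading locus-coded falls 6 differed between organs. AT1G24575 fell in both, by 2.56 in roots and 1.72 in shoots on the log2 scale, and the difference of -0.84 was not called (adjusted p = 0.212). Of all 1006 rises 55 were called higher and 10 lower in shoots, and of the 1175 falls 37 were called lower and 24 higher. Over all 14714 tested probe sets 261 were called in shoots, in either direction.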

How the data were processed

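Total RNA of whole roots and shoots was hybridised as labelled cRNA to Affymetrix arrays, 1 colour, 2 arrays a group. The deposited values are signal intensity on a linear scale, and MAS5 is the tool that the submitters' processing notes name. The trimmed mean of 500.04 on each root array shows that they were scaled. Versions and other steps are not given in the sources used here. From these values log2(signal + 25) was computed and the 4 root arrays were compared with limma 3.58.1 in R 4.3.3 (group means, variance trend on mean signal, Benjamini-Hochberg over 14714 probe sets). The difference between roots and shoots came from 1 model over all 8 arrays. The procedure was tested on simulated data.

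The platform's annotation gave 13513 probe sets 1 gene, 503 several and 8730 none. Symbols were updated through RefSeq (TAIR10.1), for 13436 by gene ID and 48 by locus, while 29 kept the file's name. Families were found by words in RefSeq names and synonyms, a match narrowed to word starts and cleared of clone names after the values had been seen. The members and the lists were chosen with earlier results of these data known. Named were the 15 largest locus-coded changes and the 5 largest with a symbol each way, up to 4 called members of each list, the 5 largest gains and losses of mean signal, and the tested genes of sulfate assimilation and sulfur deficiency; genes named beyond these were chosen after their values were seen. Of 48 lists, 21 are described: 5 fixed by locus with a tested gene, and 16 found by words with at least 5 tested genes. Alternatives were other pseudocounts (5 and 100), filters, normalizations, variance model, a replicate block, all 8 arrays and leaving out each array.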

Additional observations from a re-analysis of the deposited data

Results flagged for a closer look

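For 49 of the named genes the change with selenate differed between roots and shoots by a test of the difference itself (limma over all 8 arrays, adjusted p under 0.05 over all tested probe sets). The values here are the log2 change in roots minus that in shoots. Named genes were picked largely for their change in roots, which is part of this difference. The 3′ to 5′ ratio of GAPDH was 7.34 and 2.95 in selenate shoots and 2.03 and 10.4 in control shoots, against 0.783 to 0.868 on the root arrays, and its part in these differences was not tested. Groups of 2 arrays are too small to test a single array as an outlier.

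Among locus-coded genes that rose in roots, the difference was positive at AT1G76640 (5.65), AT4G33720 (5.15), AT4G29780 (5.0), AT4G27654 (4.97), AT3G02840 (4.73), AT1G19210 (4.5), AT3G01830 (4.44), AT2G25735 (4.17), AT5G17350 (3.98), AT4G27657 (3.83), AT5G52050 (3.78), AT4G27280 (3.60), AT2G25460 (3.56), AT1G15010 (3.51), AT4G27652 (3.10), AT1G12030 (2.27) and AT1G75280 (1.90). In these the roots gained more than the shoots. AT1G04770, of the sulfur deficiency list, moved in opposite directions, with a log2 change of 1.24 in roots and -1.0 in shoots, both called, a difference of 2.24. Among locus-coded falls the difference was negative at AT3G52060 (-1.23), AT5G61590 (-1.42), AT4G28240 (-1.75), AT1G64370 (-1.77), AT2G37130 (-1.90), AT1G34510 (-2.31), AT1G52820 (-3.92) and AT1G67870 (-4.04).

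Genes with a symbol that rose more in roots than in shoots were ORA47 (5.29), STZ (5.10), BGLU28 (5.06), CML37 (4.89), CML38 (4.12), PUB23 (3.91), EXLA3 (3.23), WRKY53 (3.17), CML23 (3.16), OPCL1 (3.01), APS3 (2.92), PUB22 (2.34), WRKY22 (1.74), XTH20 (1.56), XTH18 (1.53) and EXLA1 (1.49). BGLU28 was called higher in shoots too, by 2.03. Those with a lower change in roots were CYP71B34 (-1.34), LHCB4.2 (-1.51), HIS1-3 (-1.63), EXPA7 (-1.86), APS4 (-1.86) and OCT1 (-2.06). PUB19, a U-box ubiquitin ligase, went against the other risers: its log2 change was 0.90 in roots and 3.43 in shoots, a difference of -2.53.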

How the results depend on the processing

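The counts of calls moved most with the model. With all 8 arrays in the fit 533 probe sets were higher and 378 lower; with the replicate number as a block 1644 were higher and 2274 lower. Deviations of same-numbered root arrays correlated at 0.408, but the labels do not say that a number marks a shared batch, so whether the numbers pair the arrays is not known. Asking for a signal of 100 on all 4 root arrays left 95 rises of at least 4-fold, since genes low in control roots were then not tested, and a pseudocount of 100, which shrinks folds, left 165 falls of at least 2-fold. Leaving out each array in turn gave 913 to 1103 rises, 983 to 1378 falls, 194 to 203 rises of at least 4-fold, 280 to 317 falls of at least 2-fold and 226 to 714 organ differences among the root calls; the alternatives for the organ difference were added after seeing the data. No direction of a named gene reversed under the alternatives run. With a signal of 100 asked for on all 4 root arrays, only 59 of the 91 named genes were tested, and none of these changed its call. BGLU28, CML37, CML38, ORA47 and AT1G67870 were among the named genes left untested in that setting. Of the 91 named genes, 24 lost their call with all 8 arrays, 15 with no filter, 7 with no variance trend, 4 with median centring, 1 with quantile normalization, 1 with a pseudocount of 5 and 0 with one of 100. Leaving out control root array 1 ended 12 calls, control root array 2 and selenate root array 1 ended 6 each, and selenate root array 2 ended 7. Of 546 counts of called list members under these alternatives, 472 stayed within 1.5 times the main count and 74 moved further. The cause was not tested. With 2 arrays a group, small changes of dim genes rest on few measurements, and a signal near the low end of the scale gives only a rough fold.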

Other observations

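Some further groups of genes were put together after their values were seen, so their counts are descriptions and support nothing. Over all genes 6.55% rose and 7.41% fell. Of 9 ATG8 genes, whose proteins coat forming autophagosomes, 5 fell and 0 rose, with a median log2 change of -0.40, and 2 of the falls were called with all 8 arrays. MCCA, MCCB and IVD, which encode enzymes of leucine breakdown, all fell, by log2 changes between -0.97 and -0.66, in this fit, with all 8 arrays and without any 1 root array. Of 4 SPIRAL1-like genes, relatives of a microtubule protein, 3 fell, with a median of -0.94. GTR1 and GTR2, glucosinolate transporters, rose, with log2 changes between 0.46 and 0.73, 1 of them also with all 8 arrays. Of 4 methionine sulfoxide reductase B genes, whose enzymes repair oxidised methionine, 2 rose and 0 fell, and 1 of the 2 was called with all 8 arrays.

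Groups by genome were put together in the same way. Of 51 plastid-encoded genes 1 rose and 4 fell, shares below or near those of all genes, with a median log2 change of 0.19, and 1 of the 5 calls held with all 8 arrays. Of 10 nuclear genes of photosystems, antennae and the plastid ATP synthase 8 fell and 0 rose, with a median of -0.87, and 5 of the falls held with all 8 arrays. Of 12 mitochondrial genes named by the platform 7 rose and 0 fell, with a median of 0.67, of which 2 were called with all 8 arrays. The difference between these groups was not tested.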
